A study of Mus musculus with 786 samples.

Results

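The cytosolic ribosomal protein genes of mouse were described across early blood-forming cells. Members were chosen by symbol: Rpl or Rps followed by a digit, and Rpsa, Rplp0, Rplp1 and Rplp2, leaving out the kinases of the Rps6k group, pseudogene symbols containing -ps, and Rps19bp1. This gave 82 of the 21664 genes in the single-cell tables and 81 of the 18855 genes in the bulk table. Either kind of table listed 84 members, 31 of the small subunit, 43 of the large subunit, 3 of the stalk and 7 paralogs, which are second genes that resemble a standard member. In all, 79 members stood in both kinds of table.

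All cells came from bone marrow of C57BL6 mice aged 6 to 8 weeks. The gate for haematopoietic stem cells (HSC) was CD48-CD150+CD135-CD34-, and that for the multipotent precursors MPP1 was CD48-CD150+CD135-CD34+. Single cells were captured on the C1 Fluidigm device, amplified by Smart-seq and sequenced as plates of 96 wells. HSC plates 1 and 2 and MPP1 plates 1 and 2 came from normal mice, and 1 HSC plate and 1 MPP1 plate came from mice that had been bled. HSC plate 3 carried ArrayControl RNA spikes, and the note on its mice gives both normal and bled animals. The bulk libraries covered 18 sorted populations, from HSC to pro-erythrocytes, with 1 library of 1000 cells each. The gate written for bulk HSC carries CD34+, as that of bulk MPP1 does, although Cd34 stood at 25.2 FPKM in the HSC library and 1786 in the MPP1 library. FPKM is the number of fragments relative to transcript length and to the size of the library, which puts genes on 1 scale. Levels are compared between genes on that scale, although single-cell and bulk values of some members stood far apart, as given below.

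Ribosomal proteins, together with ribosomal RNA, build the small subunit, which reads the mRNA, and the large subunit, which joins the amino acids. The P stalk of the large subunit, made of the products of Rplp0, Rplp1 and Rplp2, recruits the translation factors that use GTP. Their mRNAs belong to the TOP class, whose transcripts begin with a C followed by further pyrimidines (C or T letters in the gene) and whose translation is tied to growth signals. Loss of 1 copy of several of these genes causes Diamond-Blackfan anaemia in humans, and stem cells of the blood are known for a low and tightly held rate of protein synthesis.

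A cell entered if its well was labelled with exactly 1 cell and if 1000 or more genes reached 1 FPKM, the level called detected here. Of 460 such wells, 373 passed. HSC plates 1, 2 and 3 gave 50, 53 and 73 cells, MPP1 plates 1 and 2 gave 51 and 48, and the bled plates gave 48 (HSC) and 50 (MPP1). Their median of detected genes lay between 1969 (HSC plate 3) and 3046.5 (bled MPP1 plate). All 9 HSC markers, among them Procr, Mecom and Hlf, were above 0 on each of the 7 plates, with summed plate means of 524 to 979 FPKM. Markers of other cell types were present too. Megakaryocyte markers, of which 5 to 8 of 9 were above 0, summed to 213 to 364 FPKM, with Pf4 from 9.51 on the bled HSC plate to 230 on MPP1 plate 1. B cell markers summed to 16.0 to 105 FPKM, nearly all of it Cd79b, while Pax5, Ms4a1 and Ebf1 were listed at 0 on all plates. Erythroid markers summed to 29.1 to 108 FPKM, granulocyte-monocyte markers to 49.6 to 96.1, neutrophil markers to at most 9.81, stroma markers to at most 12.3 and macrophage markers to at most 17.5. The part of these in the member values was not tested. The T cell gene Cd3d stood at 30.7 FPKM in bled HSC and 0.632 in bled MPP1, and was listed at 0 on the other plates. It was detected in 0.869% of cells on average over the plates, so these means rest on few cells. Nothing in the labels says whether a plate held cells of 1 mouse or of several, so the tests below measure only the spread between plates. HSC plate 1 exists in 2 runs, and its columns could hold either. The bled plates stand in a table of their own, so bleeding, table and plate cannot be told apart.

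The start sites of the genes are shown first, because the start of a TOP mRNA is the feature by which the family is known. RefSeq's table of start sites on GRCm38.p6, which is not the build of the deposited values (mm9), held 64 of the 84 members. Each sequence runs from 15 bases before the annotated start to 15 bases from it, 5′ to 3′ on the strand of the gene. Capitals mark a run of at least 5 C or T letters that begins with C within 5 bases of the start. Rpl35, Rps9 and Rps6 are shown as standard members with such a run, Rps15a as a member that was low in single cells, Rps2 and Rpsa as the members with the smallest p in bled against normal plates, and Rpl41 as the member of the highest single-cell level.
Rpl35, chr2:39005117-39005146, minus strand: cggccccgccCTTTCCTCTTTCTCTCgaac
Rps9, chr7:3704026-3704055, plus strand: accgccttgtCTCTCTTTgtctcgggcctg
Rps6, chr4:86857353-86857382, minus strand: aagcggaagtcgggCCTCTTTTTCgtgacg
Rps15a, chr7:118116133-118116162, minus strand: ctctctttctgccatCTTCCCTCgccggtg
Rps2, chr17:24720048-24720077, plus strand: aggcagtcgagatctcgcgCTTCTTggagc
Rpsa, chr9:120127751-120127780, plus strand: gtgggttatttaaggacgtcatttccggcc
Rpl41, chr10:128549154-128549183, minus strand: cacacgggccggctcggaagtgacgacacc

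A run of this kind was found at an annotated start of 29 of 64 members (45.3%) and of 5689 of 26961 other genes (21.1%). On the other strand, searched in the same way, it was found for 9 of 64 members (14.1%) and for 24.4% of the other genes. The share in members was thus above that of other genes on the strand of the transcript only. Rpl41 and Rpsa had no run in this window, which says only that these letters are not at the annotated position. Members with a run had a median single-cell level of 112 FPKM (28 members), and those without one 94.1 FPKM (35 members), so the medians lay close together.

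In single cells the members spanned a wide range of levels, and the order among them was nearly the same on every plate. The level of a gene is its mean FPKM over the cells of a plate, averaged over the 7 plates. Rpl41, the gene of a very short protein of the large subunit, had the highest level with 2561 FPKM and ranked 3 among all genes. Its plate means were 2703, 1943 and 2135 FPKM on HSC plates 1, 2 and 3, 2079 and 2182 on the MPP1 plates, and 3482 (HSC) and 3401 (MPP1) on the bled plates. It alone held 11.6% of the members' summed level. Other members of high level were Rps9 (1431 FPKM), a protein of the small subunit, and Rpl32 (1162 FPKM) and Rpl8 (925 FPKM), both of the large subunit. The 10 highest members together held 51.7% of the summed level, and 22 members stood among the 100 highest genes.

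The median of the 75 members that are not paralogs was 132 FPKM. At the low end stood Rpl34 with 4.84 FPKM, Rps15a with 6.39, Rps12 with 7.13, Rpl12 with 12.8 and Rps29 with 15.1. The level of Rpl41 was 401 times that of Rps15a. For Rpl34 the ratio was 529, but that level rests on 36 of 373 cells: without MPP1 plate 2, a setting added after seeing the data, Rpl34 averaged 2.11 FPKM and the ratio was 1243. A ribosome holds most of these proteins in equal numbers. Over the 82 members the plate levels had rank correlations of 0.975 to 0.992 in the 21 pairs of plates, against 0.679 to 0.767 over 10027 genes. These correlations are a description: the plates share the method and the gene models, and members have high levels.

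**Figure D1:**
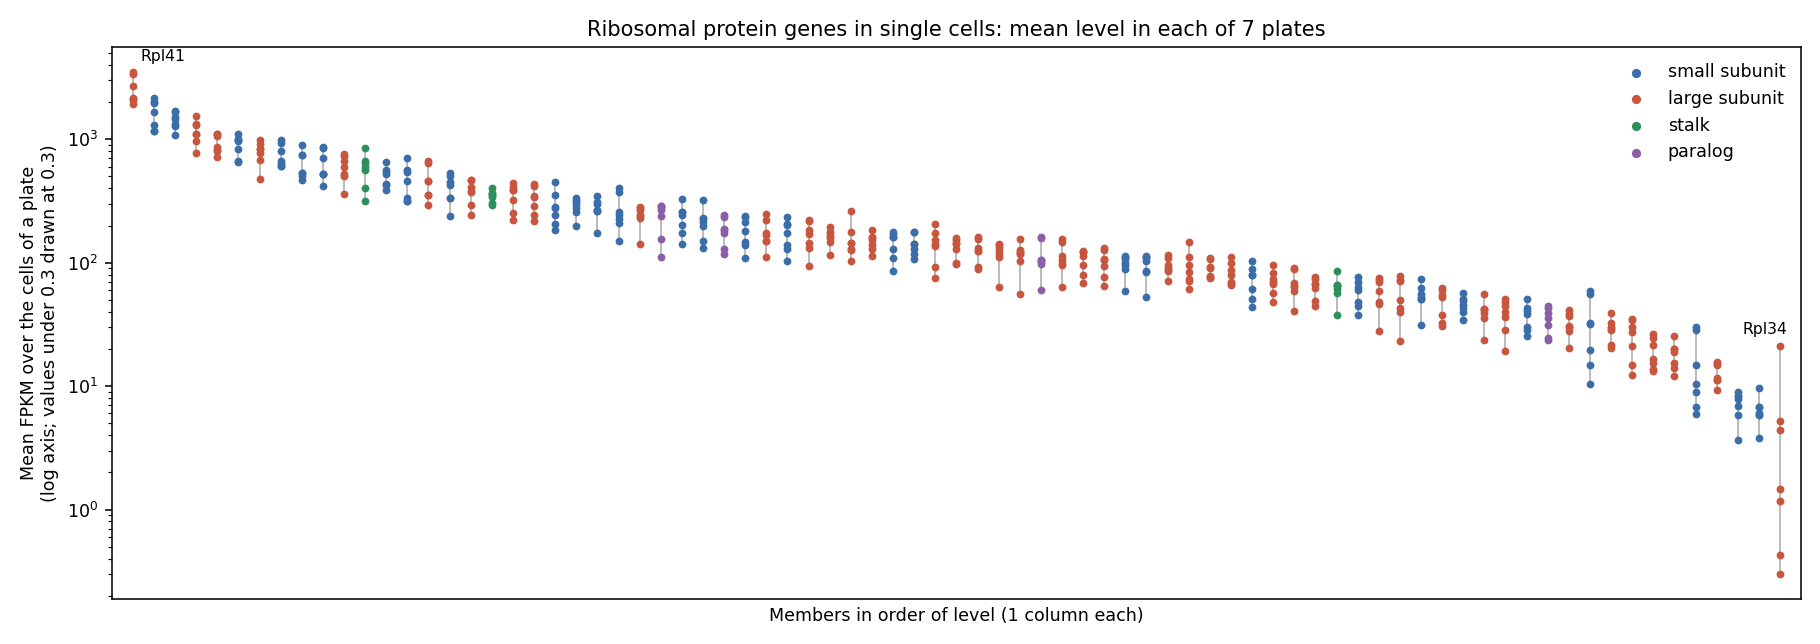
Plate mean FPKM (log axis, values under 0.3 drawn at 0.3) of 79 members in single cells, in order of level along the horizontal axis and coloured by role, with 1 point per plate and a thin line over the range of a member. Rpl41 stands at the top with 2561 FPKM over 7 plates and Rpl34 at the bottom with 4.84, and the points of most members lie close together compared with the range over members. Rpl39l, Rpl10l and Rpl3l are not drawn.

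Many members have near-identical copies in the genome, mostly processed pseudogenes, and how the deposited counting treated reads that match several copies is not given in the sources used here. Among GENCODE M21 transcripts, 3 standard members had no other gene at 95% identity or more over at least 80% of the coding sequence. Among these were Rpl8 and Rps3, with levels of 925 and 628 FPKM. The 55 members with 1 to 9 such genes had a median of 132 FPKM, and the 16 members with 10 or more had a median of 96.7 FPKM and a highest level of 462. Rps2 had 26 such genes, Rps12 22 and Rpsa 11, Rps29 and Rps15a 6 each, and Rpl34 5. Across 74 members, the number of copies had a rank correlation of -0.30 with the level and -0.19 with the share of cells detected. Low values of members with copies are therefore uncertain, and the part of the copies in the order of levels was not tested.

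Most members were present in nearly every cell. On average over plates, 78 of the 82 members were detected in at least 50% of the cells, 67 in at least 90% and 53 in at least 95%. Rps3a, Rpl4, Rpl41 and Rps6 were each detected in 372 of 373 cells, and Rps4x and Rps14, both of the small subunit, in 371. Rps6 is the small subunit protein phosphorylated by S6 kinase, and Rpl4 lines the exit tunnel of the large subunit. At the other end, the paralog Rpl39l was detected in 3 of 373 cells, Rpl34 in 36, the paralog Rpl7l1 in 189, Rps29 in 258 and the paralog Rps27l in 290. The paralogs Rpl3l and Rpl10l were listed at 0 in every cell.

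Rpl34 was detected in 0 of 50 cells of HSC plate 1 (exact binomial interval 0% to 7.11%) and in 9 of 48 cells of MPP1 plate 2 (18.8%, interval 8.95% to 32.6%). Rps29 differed between plates of 1 label: it was detected in 47 of 50 cells of HSC plate 1 (94.0%, interval 83.5% to 98.7%), in 29 of 53 cells of plate 2 (54.7%, 40.4% to 68.4%) and in 21 of 73 cells of plate 3 (28.8%, 18.8% to 40.6%). The interval of HSC plate 1 lay above those of the other HSC plates, which just met. The intervals are at a level of 95% and cover counting error only.

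Together the members made up 6.66% to 9.74% of a cell's summed FPKM by plate median. The median share per cell was 8.68%, 6.66% and 8.03% on HSC plates 1, 2 and 3, then 8.34% and 7.25% for MPP1, and 9.74% (HSC) and 8.47% (MPP1) on the bled plates. HSC plate 2 was lowest and the bled HSC plate highest. Across cells the share ran from 2.84% to 14.8% within HSC plate 2 and from 4.29% to 18.0% within HSC plate 3. The small and large subunits took similar parts, at 3.11% to 4.53% and 3.26% to 4.62% of the summed plate means. Wells labelled with no cell also gave shares, with plate medians of 5.30% to 9.79%, but they held a median of 8 to 30 detected members against 73 to 77 in all wells with 1 cell. On the 4 plates where empty wells reached 1000 genes, those wells (3 to 7 per plate) had medians of 35 to 61 detected members. A share alone does therefore not tell a cell from an empty well, whereas the median number of detected members was lower in empty wells on each of the 7 plates.

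**Figure D2:**
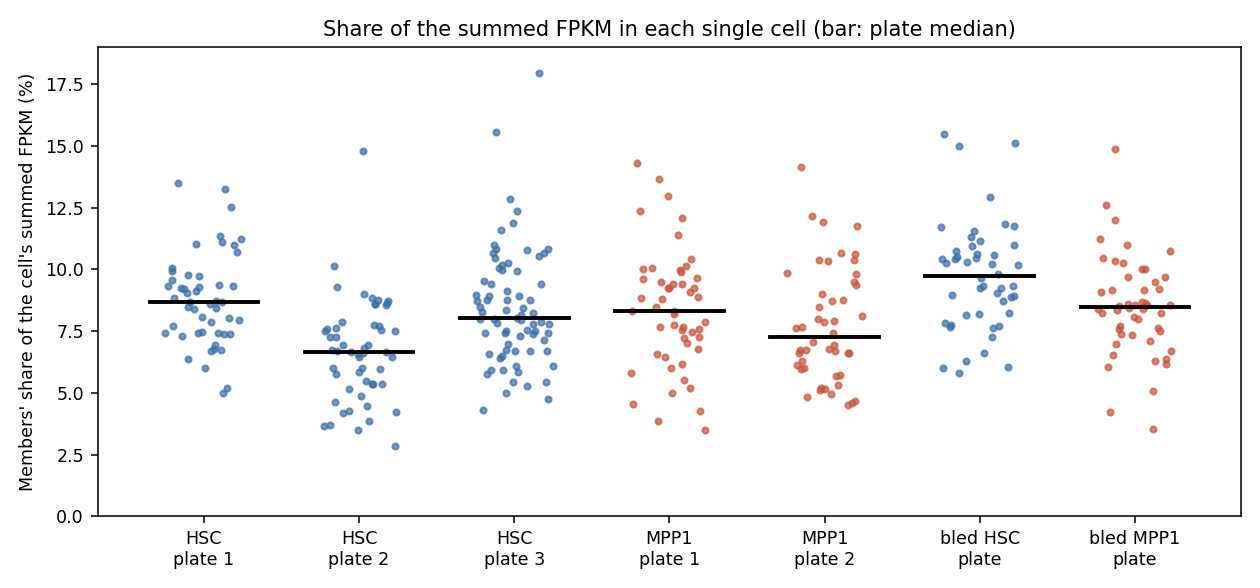
Members' share of the summed FPKM of a cell (percent) by plate, with 1 point per cell and the plate median as a bar. Medians lie between 6.66% on HSC plate 2 and 9.74% on the bled HSC plate, within a spread of cells that reaches 18.0% on HSC plate 3.

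Within a plate, cells high in 1 member tended to be high in others. After each cell was scaled to its own total, the rank correlation across cells had a median over member pairs of 0.131 (HSC plate 3) to 0.233 (MPP1 plate 2), and 80.3% to 90.9% of pairs were above 0. Among other genes detected in at least 50% of the cells, the median was 0.026 to 0.086. Without that scaling the members' medians were 0.306 to 0.509 and those of other genes 0.047 to 0.134. The other genes were not matched to the members in level or in detection. Of the 82 members, 67 were detected in at least 90% of the cells on average over plates. The part of level and detection in the gap was not tested. The summed large subunit genes (with the stalk) and the summed small subunit genes were each taken as a percentage of the cell's summed FPKM. These 2 percentages had rank correlations of 0.53 to 0.83 across the cells of a plate. All these correlations come from 48 to 73 cells that share a plate and differ in the number of detected genes. The share of the members followed that number in no single direction (rank correlations of -0.23 to 0.36), while the number of detected members had rank correlations of 0.47 to 0.81 with it.

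Not every member followed the rest. For 74 standard members, the rank correlation of 1 member with the sum of the others, averaged over plates, had a median of 0.36. It was highest for Rps19 (0.66), the gene most often mutated in Diamond-Blackfan anaemia, followed by Rpl35 and Rpl32 with 0.59 and 0.58. Rpl39, a small protein at the exit tunnel, had -0.03 at a level of 594 FPKM, and Rps2, a protein at the mRNA entry, had 0.07 at 32.1 FPKM. The 4 paralogs that were detected widely enough lay between 0.03 and 0.16. A low level gives a noisy correlation, so these values describe the measured genes and not their control.

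The 3 genes of the P stalk were all above 0 on each plate and kept 1 order, Rplp1 above Rplp0 above Rplp2, on all 7. Rplp1 had plate means of 592, 317 and 669 FPKM on HSC plates 1, 2 and 3, 403 and 648 on the MPP1 plates, and 858 (HSC) and 568 (MPP1) on the bled plates. Rplp0, the scaffold to which the others bind, had 357, 296 and 305 FPKM, then 341 and 401, and 359 and 371 in the same order. Rplp2 had 66.3, 37.5 and 61.0 FPKM, then 64.6 and 65.5, and 86.3 and 56.7. Relative to its level, Rplp0 varied least of the 3 over the plates, and the HSC and MPP1 plates overlapped in Rplp1.

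Some paralogs exceeded their parent gene. Rps27l, which is known as a target of p53, averaged 182 FPKM against 72.2 for Rps27, a ratio of 2.52, and was higher on 7 of 7 plates although fewer cells held it (79.1% against 93.4%). By the median over cells it was higher on 6 of 7 plates, a comparison added after seeing the data, and on HSC plate 3 its median was 13.8 FPKM against 65.8 for Rps27. Rpl22l1 averaged 113 FPKM against 53.9 for Rpl22, whose loss is known to disturb lymphocyte development, a ratio of 2.10 with the same order on 7 of 7 plates. Rpl36al averaged 232 FPKM against 38.2 for Rpl36a, a ratio of 6.08, again on 7 of 7 plates. For these 2 pairs the medians over cells had the same order on 7 of 7 plates. The other pairs had the opposite order: Rpl7l1 stood at 34.6 FPKM against 328 for Rpl7, and Rpl39l at 0.0836 against 594 for Rpl39. Rpl10l was listed at 0 against 68.3 FPKM for Rpl10, and Rpl3l, a muscle form, at 0 against 149 for Rpl3.

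How far reads can separate a pair depends on its sequence. The coding sequences were identical at 76.1% of aligned positions for Rps27 and Rps27l, 67.5% for Rpl22 and Rpl22l1, 87.9% for Rpl36a and Rpl36al, and 54.5% for Rpl7 and Rpl7l1. Rpl39 and Rpl39l shared 85.3%, Rpl10 and Rpl10l 84.8%, and Rpl3 and Rpl3l 73.3%. Near-identical genes, counted as above, numbered 4 for Rps27 and 0 for Rps27l, and 6 for Rpl36a and 2 for Rpl36al. For Rpl22 and Rpl22l1 they numbered 1 and 2. The part of these copies in the ratios of the pairs was not tested. The first 30 coding bases are shown for 2 pairs in which the paralog exceeded its parent gene, to let the differences be seen, from the GENCODE M21 transcripts (GRCm38), with capitals at the positions that differ within a pair. Rps27 lies on chromosome 3 and Rps27l on chromosome 9, and they differ at 10 of these bases. Rpl36a lies on chromosome X and Rpl36al on chromosome 12, and they differ at 6.
Rps27: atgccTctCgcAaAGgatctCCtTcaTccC
Rps27l: atgccCctGgcTaGAgatctGTtAcaCccT
Rpl36a: atggtGaacgtGccTaaaacccgCCggacA
Rpl36al: atggtCaacgtAccAaaaacccgAAggacT

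For MPP1 against HSC, plates 1 and 2 of each label were used, to ask how the family differs between the first stages of the hierarchy. No member passed the test. Of 79 tested members 0 had a limma adjusted p (Benjamini-Hochberg) under 0.05, against 0.0102% of the 9833 genes tested. At an unadjusted p under 0.05, 2 members were higher in MPP1, against 2.56% of all genes, and 0 were lower, against 4.22%. Differences are in log2(plate mean FPKM + 1), which understates the change of low genes. The difference was above 0 in 59 of 79 members, against 48.4% of all genes, with a median of 0.13 (all genes -0.04). Small subunit genes had a median of 0.12 (22 of 30 above 0) and large subunit genes 0.16 (31 of 42 above 0).

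The sign of that median rested on 1 plate. HSC plate 1 exceeded HSC plate 2 in 74 of 79 members, with a median log2 difference of 0.74 (all genes 0.04), while the MPP1 plates differed by -0.02. Without HSC plate 2 the median of MPP1 against HSC was -0.20, and without HSC plate 1 it was 0.53. The median for MPP1 against HSC was thus smaller in size than that between the HSC plates, though larger than that between the MPP1 plates. HSC plate 2 also had a lower median total per cell than HSC plate 1 (235113 against 286197 FPKM) and more detected genes (2594 against 2157.5), and their part in the result was not tested.

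The members with the smallest p were these. Rpl34, of the large subunit, had plate means of 4e-06 and 1.46 FPKM in HSC and 4.44 and 21.2 in MPP1 (log2 difference 2.81, SE 1.04, limma adjusted p = 0.667). The groups did not overlap, but on MPP1 plate 2 a single cell held 727 FPKM, and the plate mean without it was 6.18. Rps29, a zinc-binding protein of the small subunit, had 14.7 and 5.95 FPKM in HSC and 28.6 and 29.9 in MPP1 (1.53, SE 0.68, adjusted p = 0.721). HSC plate 3 held 6.72 FPKM of Rps29, below both MPP1 plates as well.

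Rps21, also of the small subunit, had 176 and 141 FPKM in HSC and 259 and 242 in MPP1 (0.67, SE 0.40, adjusted p = 0.812). In the other direction the paralog Rpl7l1 had 43.3 and 44.3 FPKM in HSC and 24.8 and 23.6 in MPP1 (-0.83, SE 0.55, adjusted p = 0.832). Rps18 and Rps14, both of the small subunit, had differences of -0.38 and -0.28 with overlapping plates (limma adjusted p = 0.897 and 0.913). Both MPP1 plates lay above both HSC plates in 9 members (Rpl13, Rpl28, Rpl34, Rpl35, Rpl38, Rpl7a, Rps21, Rps26 and Rps29), or 11.4%, against 15.8% of all genes. They lay below in 2 members (Rpl7l1 and Rpl9), against 19.9% of all genes. Non-overlap was therefore no more frequent among members than among genes at large.

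**Figure D3:**
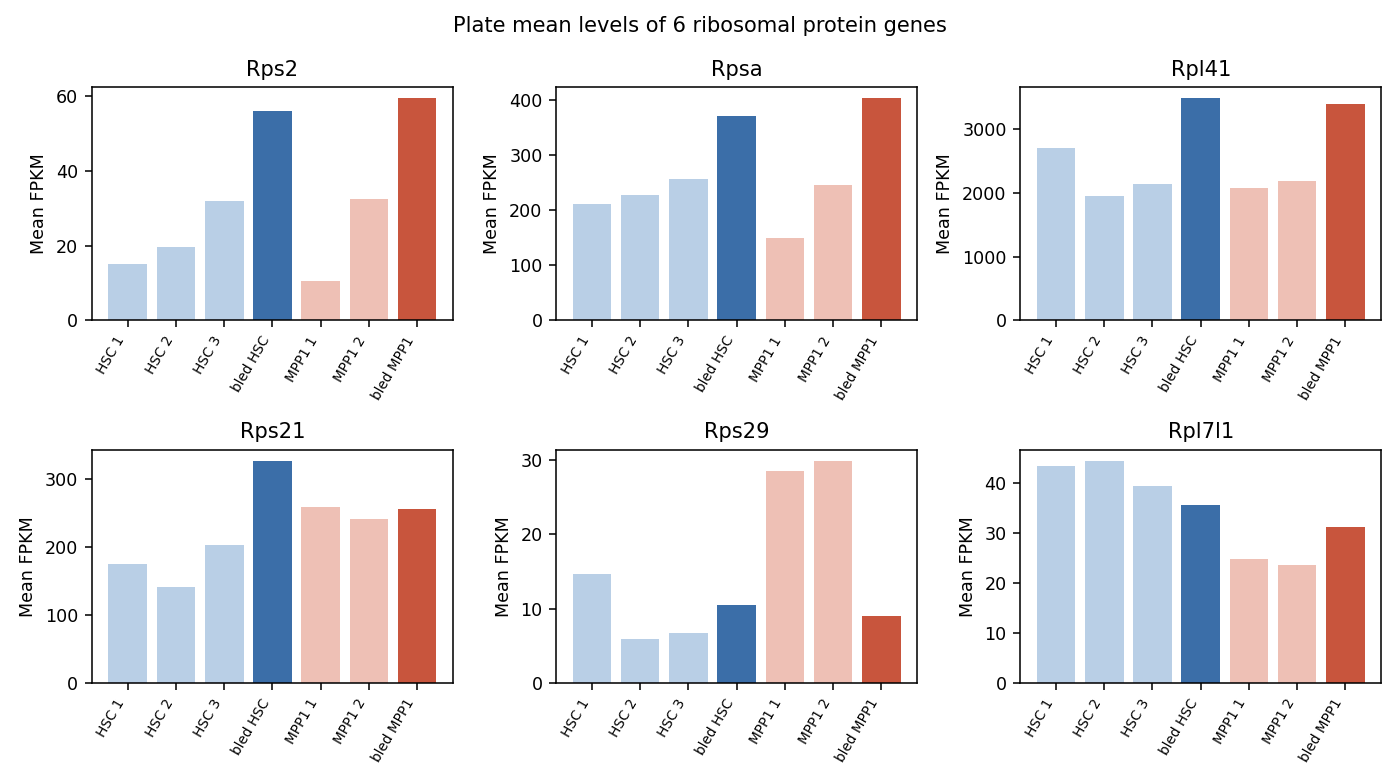
Plate mean FPKM of Rps2, Rpsa, Rpl41, Rps21, Rps29 and Rpl7l1, with 1 bar per plate, HSC in blue and MPP1 in red, and the bled plates in the darker shade. Rps2 lies at 56.0 and 59.3 FPKM on the bled plates and at 10.4 to 32.6 on the others, and Rps29 at 28.6 and 29.9 on the MPP1 plates of normal mice.

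Bled and normal mice were compared over 6 plates in a fit that holds the cell type, to ask whether blood loss is followed by a change in the family. No member passed here either: 0 of 79 had a limma adjusted p under 0.05, with 0% of the 10017 genes tested called. At an unadjusted p under 0.05, 7 members were higher on bled plates (Rps2, Rpsa, Rpl41, Rpl29, Rps18, Rps3 and Rpl30), against 3.39% of all genes, and 0 were lower, against 2.46%. The difference was above 0 in 66 of 79 members, against 50.5% of all genes, with a median of 0.29 (all genes 0.01). The median was 0.36 in the small subunit (25 of 30 above 0) and 0.27 in the large subunit (35 of 42 above 0). Without HSC plate 2 it was 0.06, and without the bled HSC plate 0.09. The bled MPP1 plate had the most detected genes per cell. T and NK markers, of which 1 to 5 of 7 were above 0, summed to 32.8 to 176 FPKM over the 7 plates. The highest sum, on MPP1 plate 1, was mostly Nkg7 (173 FPKM). Gzma was listed at 0, and Cd3d, detected in few cells, was highest on the bled HSC plate. The part of these in the result was not tested.

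Rps2 had 14.9 and 19.5 FPKM on HSC plates 1 and 2, 10.4 and 32.6 on the MPP1 plates, and 56.0 (HSC) and 59.3 (MPP1) on the bled plates (log2 difference 1.64, SE 0.54, limma adjusted p = 0.797). HSC plate 3, whose mice are noted as both normal and bled, held 31.9 FPKM, below both bled plates. With 26 near-identical copies, Rps2 is among the members whose values are most uncertain. Rpsa, a small subunit protein also known as the laminin receptor, had 212 and 227 FPKM, then 150 and 245, and 371 and 404 on the bled plates (0.91, SE 0.33, adjusted p = 0.797). Rpl41 had the values given above, with the lower bled plate at 3401 FPKM and the highest normal plate at 2703 (0.64, SE 0.23, adjusted p = 0.797).

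The members of smallest p in the other direction were Rps29 (log2 difference -0.73), Rps6 (-0.21) and Rps27 (-0.15), with limma adjusted p of 0.919, 0.963 and 0.991. Both bled plates lay above the 4 normal plates in 18 of 79 members (22.8%), against 7.94% of all genes, and below them in 0, against 6.52%. Against those 4 plates and HSC plate 3, 16 members (20.3%) lay above, against 6.29% of all genes, and 0 below, against 4.02%. Among these 16 were Rpl27, Rpl29, Rpl30, Rpl39, Rpl41, Rpl5, Rpl7a, Rpl8, Rpl9, Rps13, Rps15, Rps2, Rps3 and Rpsa. The share of members above was larger than that of all genes, but members move together within a plate, and only 1 bled plate stood for each cell type.

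**Figure D4:**
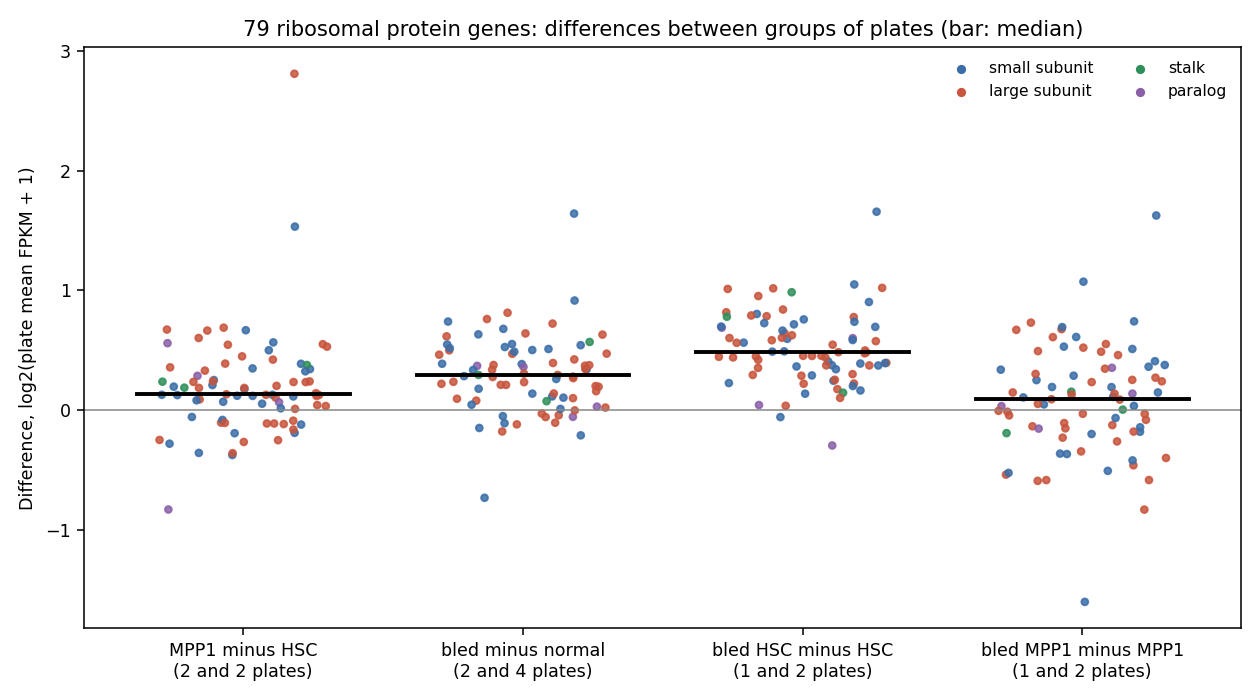
Difference in log2(plate mean FPKM + 1) of each of the 79 tested members, with 1 point per member coloured by role and a bar at the median, for MPP1 minus HSC, bled minus normal, and bled minus normal within HSC and within MPP1. The medians are 0.13, 0.29, 0.48 and 0.09 (all genes -0.04, 0.01, -0.03 and 0.06). For MPP1 minus HSC and for bled minus normal, 0 members pass a limma adjusted p of 0.05.

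The bled difference was set against cell type with an interaction term, the bled difference in MPP1 minus that in HSC, in a fit where the single bled plates are assumed to vary like the normal ones. Of 79 members 0 had a limma adjusted p under 0.05 (0% of 10017 genes). At an unadjusted p under 0.05, 0 were higher and 0 lower, against 3.17% and 1.93% of all genes. The term was above 0 in 11 of 79 members, against 53.8% of all genes, and its median was -0.43 (all genes 0.13). Bled HSC minus normal HSC was above 0 in 77 of 79 members, against 48.4% of all genes, with a median of 0.48 (all genes -0.03). Bled MPP1 minus normal MPP1 was above 0 in 46 of 79, against 52.7% of all genes, with a median of 0.09 (all genes 0.06). A difference between the cell types was therefore not shown by the test for any member.

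The bled HSC plate lay above HSC plates 1 and 2 in 51 of 79 members (64.6%), against 31.9% of all genes, and below both in 1, Rpl7l1, against 35% of all genes. Above all 3 HSC plates it lay in 51 members, against 26.4% of all genes, and below in 1, against 24.1%. The bled MPP1 plate lay above both MPP1 plates in 34 members (43.0%), against 36% of all genes, and below both in 23 (29.1%), against 28.7%. Measured against HSC plate 1 alone, the bled HSC plate had a median difference of 0.07 over the members, against HSC plate 2 alone 0.83 and against HSC plate 3 alone 0.52. The replicate plates' own member medians had a pooled SD of 0.395, above the first of these differences and below the others. It describes the median of a single plate and not a difference between plates. Nearly all of it came from HSC plates 1 and 2 (median log2 levels 7.30 and 6.52), as the MPP1 plates stood at 7.06 and 7.00.

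Rpl13, of the large subunit, had 150 and 112 FPKM in HSC, 223 in bled HSC, 173 and 246 in MPP1 and 149 in bled MPP1 (interaction -1.24, SE 0.68, limma adjusted p = 0.964). Rps21 had 327 FPKM in bled HSC and 256 in bled MPP1 (-1.01, adjusted p = 0.964). Rps29 had 10.5 and 8.95 FPKM there (-1.74, adjusted p = 0.971). Rpl7l1, Rpsa and Rpl9 had terms of 0.65, 0.32 and 0.30, with limma adjusted p of 0.981, 0.991 and 0.991.

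The members tied to Diamond-Blackfan anaemia were counted as a group of 15, which included Rps7, Rps10, Rps19, Rps24, Rps26, Rps28, Rps29, Rpl5, Rpl11, Rpl15, Rpl26, Rpl27, Rpl31 and Rpl35a. All 15 were above 0 on every plate. Rps19 had plate means of 567, 390 and 423 FPKM on HSC plates 1, 2 and 3, 431 and 523 on the MPP1 plates, and 660 (HSC) and 543 (MPP1) on the bled plates. Rpl5 and Rpl11, which with 5S RNA hold back Mdm2 when ribosome assembly fails, averaged 93.3 and 70.9 FPKM over the plates. Rps26 had 123 ± 53.1 FPKM over the HSC plates 1 and 2 and 166 ± 6.41 over both MPP1 plates (SD, n = 2). None of the 15 passed the adjusted threshold in any of the 3 comparisons. The difference for MPP1 against HSC was above 0 in 12 of the 15 (median 0.18), beside 59 of the 79 members and 48.4% of all genes. For bled against normal it was above 0 in 13 of 15 (median 0.26), beside 66 of 79 and 50.5%. The interaction was above 0 in 0 of 15 (median -0.37), beside 11 of 79 and 53.8%. Rps29 was 1 of the members counted at an unadjusted p under 0.05 in MPP1 against HSC.

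In the bulk libraries the members took a smaller part of the summed FPKM, and this part differed between populations. The median share over 18 libraries was 1.24%, from 0.414% in MKP, the megakaryocyte progenitor, to 5.63% in MPP1. HSC held 2.97%, MPP2 2.44% and CMP, the common myeloid progenitor, 2.18%. With 1 library per population there is no test, and fewer cells of a type and less RNA per cell cannot be told apart. The library of mature megakaryocytes held only 1642 genes at 1 FPKM, and of its markers the platelet gene Ppbp stood at 0.097 FPKM and Itga2b at 44.9. Its megakaryocyte markers summed to 51.7 FPKM, below the sums of the lists for stroma and endothelium (196, nearly all of it Cxcl12) and macrophages (166, of which Vcam1 was 150), and beside neutrophil markers of 50.4. In MKP, the library of the lowest share, megakaryocyte markers summed to 271 FPKM and granulocyte-monocyte markers to 121, of which Mpo was 77.5. The part of these markers in the low member values was not tested. Some other libraries carried markers of theirs. In pro-erythrocytes all 8 erythroid markers listed in bulk reached 1 FPKM and summed to 537 FPKM, with Slc4a1 at 127. In the common lymphoid progenitor 4 of 5 markers of the lymphoid gate reached 1 FPKM and summed to 675 FPKM, of which Flt3 was 376. Only 3 of 8 B and plasma cell markers reached 1 FPKM there, and Ebf1 at 1726 made up most of their sum of 1822. In the Sca1 high library of that progenitor, markers of the lymphoid gate summed to only 17.2 FPKM. B and plasma cell markers summed there to 899 FPKM, of which Igj was 815, and T and NK markers to 15.2. The part of these in its member values was not tested.

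One stalk gene decided much of the bulk share. Rplp1 had its lowest value of 94.3 FPKM in preMegE, a median of 1112 over the 18 libraries, and its highest value of 6047 in MPP1, followed by 3149 in MPP2. In MPP1 it held 58.0% of the members' sum, and without it the share was 2.37% in MPP1 and 2.43% in HSC. The order of the highest populations therefore depended on Rplp1. Rplp2, its partner in the stalk, had a median of only 7.04 FPKM and its highest value, 44.1, in MEP.

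The median level of a member, which a single gene cannot set, was highest in CMP (12.0 FPKM), MPP1 (10.8) and HSC (8.74), then in GMP-7 (6.70) and GMP-11 (4.40), which are gates for granulocyte-macrophage progenitors, and was lowest in mature megakaryocytes (0.317). Of 76 members that reached 1 FPKM in a library, 24 had their highest value in MPP1 (31.6%, all genes 5.49%). HSC was the highest library for 12 (15.8%, all genes 4.81%) and CMP for 14 (18.4%, all genes 6.37%). In all, 57 of 81 members (70.4%) exceeded their own median over the 18 libraries in HSC, MPP1 and CMP alike, against 10.6% of 9685 genes; these populations were chosen after their values were seen. Among genes whose median over the libraries was at least 1 FPKM, members had median log2(FPKM + 1) values, each relative to the gene's own median, that stood at 1.78 in MPP1 (all genes -0.78), 1.29 in HSC (-1.07) and 1.13 in CMP (0.61). In GMP-7 they stood at 0.82 and in GMP-11 at 0.41, below all genes there (0.87 and 0.73). GMP-7 held more detected genes (6080) than CMP (5761), MPP1 (3392) or HSC (2866), and mature megakaryocytes, of lowest median, held the fewest (1642). Over the 18 libraries the share, in which Rplp1 weighed heavily, had a rank correlation of -0.23 with the number of detected genes. That value is for the share and not for the medians. The part of the number of detected genes in the medians was not tested.

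**Figure D5:**
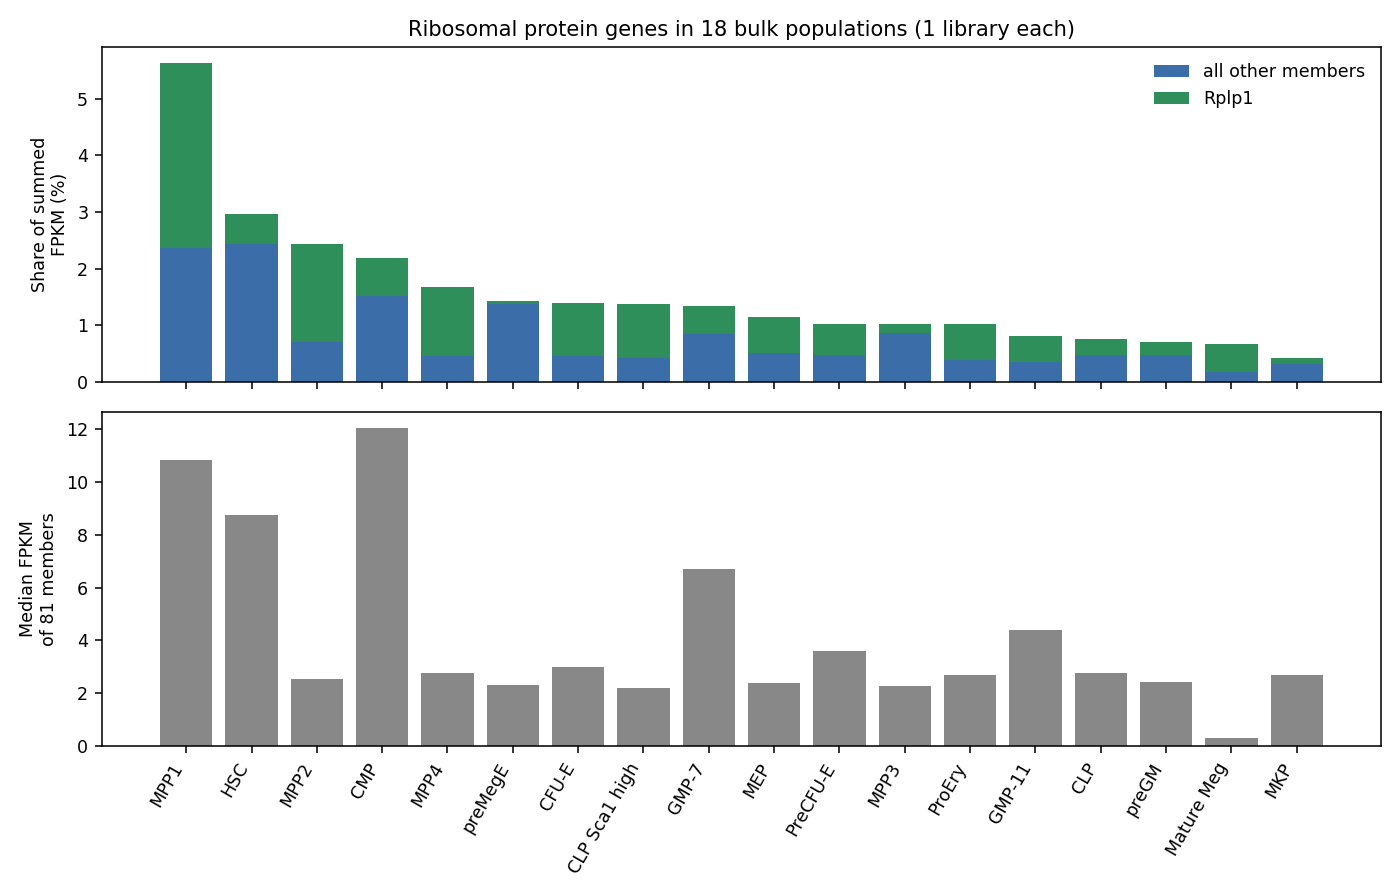
Members' share of the summed FPKM (percent, upper panel, with Rplp1 stacked in green on the other members in blue) and median FPKM of the 81 members (lower panel) in the 18 bulk libraries, 1 bar per library. CMP, MPP1 and HSC have the highest medians with 12.0, 10.8 and 8.74 FPKM, and the share in MPP1 is 5.63% with Rplp1 and 2.37% without it.

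High medians over the bulk libraries were also those of Rpl4 (114 FPKM), Rpl27 (74.6) and Rps9 (58.8). Rpl4 had its lowest value of 89.2 FPKM in preGM and its highest of 607 in MPP1, whereas Rpl27 ran from 1.70 in mature megakaryocytes to 210 FPKM in MPP3. Among members that are not paralogs, low medians were those of Rpl37, Rps21 and Rps29, listed at 0 in 12, 14 and 15 libraries, and of Rps27a (0.139 FPKM), a fusion of ubiquitin with a ribosomal protein, and Rpl18 (0.146). Rps21 averaged 229 FPKM in single cells, so bulk and single-cell values of this gene stood far apart. Rpl41 had a bulk median of 8.01 FPKM against 2561 in single cells, and Rps19 0.349 against 505. Rplp1 and Rpl27 stood higher in bulk, with 1112 against 579 FPKM and 74.6 against 28.7. The order of levels given for single cells is therefore not that of the bulk libraries. Between pairs of bulk libraries, member levels had rank correlations of 0.481 to 0.934 with a median of 0.773, so their order differed between populations too. In all, 22 members reached 1 FPKM in each of the 18 libraries, and 24 did so in fewer than 9.

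The widest ranges between bulk libraries came from single libraries as well as from the early populations. Rps15a had 1741 FPKM in preMegE and 19.8 in PreCFU-E, the next library, against a median of 0.828. Rpl22 had 483 FPKM in HSC, 108 in CFU-E and 0.131 in mature megakaryocytes. Rpl6 had 1129 FPKM in HSC and 210 in MPP1 against a median of 29.5. Rps7 had 781 FPKM in MPP1 and 353 in HSC against 9.89, and Rpl32 had 253 in HSC and 73.4 in MPP1 against 3.70. Of these 5, 4 had HSC among their 2 highest libraries, whereas Rps15a was high in 1 library.

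The paralogs differed between the kinds of library too. In bulk, Rpl7l1 had a median of 12.9 FPKM against 6.15 for Rpl7, the reverse of single cells, with its highest value of 54.5 in GMP-11. Rps27l had a median of 1.43 FPKM against 0.853 for Rps27, Rpl36al 1.08 against 0.616 for Rpl36a, and Rpl22l1 0.404 against 22.2 for Rpl22. Rpl3l was listed at 0 in all 18 libraries and Rpl39l in 17. Over 79 members, the rank correlation between single-cell and bulk levels was 0.49 and 0.48 for HSC plates 1 and 2 and 0.60 and 0.59 for MPP1 plates 1 and 2, against 0.13 to 0.21 over the 2359 to 2821 genes at 1 FPKM in both. The cut at 1 FPKM was applied to the genes at large and not to the members, so the correlations rest on unlike sets. The library methods differ, and levels across them were normalised separately.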

How the data were processed

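The authors deposited FPKM values per gene and library, made with TopHat 1.3.3 and Cufflinks 1.2.1 on mm9, per the submitters' processing notes, which add Bowtie2 2.2.1 for HSC plate 3. The tables were made separately. Depth is unknown, because low values held no common step that would give whole reads (the commonest ratio held 2.33% to 6.80% of low genes). An exact 0 can be a failed estimate and is given as listed at 0.

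Wells with 1 cell and 1000 or more genes at 1 FPKM were used, while 96 samples that repeat HSC plate 1 were left out. The tests used limma 3.58.1 (R 4.3.3; trend, empirical Bayes, two-sided) on log2(plate mean FPKM + 1), the plate being the replicate, with Benjamini-Hochberg adjustment over all genes that averaged 1 FPKM or more and a threshold of 0.05. On simulated data for MPP1 against HSC (9833 genes), 35.5% of 2-fold, 81% of 4-fold and 96.5% of 8-fold changes were recovered, and for the interaction (10017 genes) 6%, 35.5% and 78%. For bled against normal (10017 genes) it was 39%, 93% and 100%. The size of the simulated noise followed a curve on mean level, so differences in spread between genes of like level were left out. Real recovery may therefore be lower. The changed genes were all drawn from those with a mean log2(FPKM + 1) above 6, and noise was drawn independently for each gene. Recovery for members below that level, among them Rpl34, Rps29, Rps2 and Rpl7l1, was therefore not measured. Nor was it measured for genes that move together within a plate, as members do. Alternatives changed the pseudocount, the filter, the scaling, the cells and the plates used. The named members were those of highest and lowest bulk level, widest bulk range, highest and lowest detection, smallest p per comparison (3 per direction), and the paralog, stalk and anaemia members; some that the rule names are not reported here. The members and lists were chosen with earlier results of these data known.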

Additional observations from a re-analysis of the deposited data

How the results depend on the processing

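Of the named members' values under other settings, 184 kept their sign and their side of the threshold and 8 changed sign, and 0 members passed an adjusted p of 0.05 under any setting run; where a value moved, the cause was not tested beyond the plate or setting named. For MPP1 against HSC, the number of all genes called (1) was 0 without the filter, 6 with cells rescaled, 38 with the mean of log2 values and 0 without any 1 plate. Plate numbers are shared by HSC and MPP1, but nothing says that they pair the plates; with a replicate block 58 genes and 0 members were called. Deviations of same-numbered plates correlated at 0.042 over all genes and 0.563 over members. Members at an unadjusted p under 0.05 (2) were 1 without the filter, with cells rescaled and with the mean of log2 values, and 0 to 5 without 1 plate. The median (0.13) ran from -0.20 to 0.53 without 1 plate. Without 1 plate, Rps18 ran from -0.78 to 0.030 and Rps14 from -0.59 to 0.023, above 0 only without HSC plate 1. For bled against normal, all genes called (0) were 6 with the mean of log2 values and 0 to 1 without 1 plate, and members at an unadjusted p under 0.05 (7) were 3 without the filter and 0 to 10 without 1 plate. Without 1 plate, Rps6 ran from -0.51 to 0.043 (without HSC plate 1), Rps27 from -0.53 to 0.22 and Rps29 from -1.60 to 0.14 (both without the bled MPP1 plate). For the interaction, 323 genes were called without the filter, 1 member had an unadjusted p under 0.05 with cells rescaled, Rpsa ran from -0.040 (without MPP1 plate 1) to 0.67, and the median ran from -0.74 to -0.05. In single cells, detected members per cell (76.4, mean of plate medians) were 74.3 at 5 FPKM and 73.4 without the 3 members of highest level, and the share (8.17%) was 6.04% without them. Without scaling to each cell's total, a setting chosen after seeing the data, the correlation of member pairs was 0.401 in place of 0.189. In bulk, without the 3 members of highest median the median share was 0.371%, with 1.66% in MPP1, 1.70% in HSC and 0.922% in CMP; without the 50 highest other genes these were 2.01%, 13.1%, 8.32% and 3.13%. The named members had limma adjusted p of 0.667 or above in the main fits, so their keeping to 1 side of the threshold says little. Of the counts, medians, shares and correlations under other settings, 111 stayed within the limits set for them, 37 moved beyond these and 1 changed sign. Unknown depth and 1 or 2 plates per group limit all of these values.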

Other observations

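Other genes of translation were read from the same fits. For MPP1 against HSC, 23 of 35 ribosome assembly genes were above 0, against 48.4% of all genes, with a median of 0.46, and 0 passed a limma adjusted p of 0.05. Ddx21, a nucleolar helicase, had a log2 difference of 1.67, and Nob1, which trims the RNA of the small subunit, 1.44 (limma adjusted p = 0.667 for both). The initiation factors had 13 of 28 above 0, and Eif1ax, which helps the small subunit scan the mRNA, had -1.39 (adjusted p = 0.662). For bled against normal plates, the elongation factors had 6 of 7 above 0, against 50.5% of all genes (median 0.24). Gnb2l1, whose product sits on the small subunit, had a difference of 0.58 and Eef1b2, an exchange factor for elongation, 0.82. The assembly genes had 17 of 35 above 0 and a median of -0.0014, and Polr1d, a subunit of RNA polymerase I, had 1.42 (adjusted p = 0.611; HSC plate 3, which is not in the fit, held 150 FPKM, against 56.2 to 79.8 on the normal plates and 177 and 162 on the bled plates), Nhp2 1.14 and the nucleolar Npm1 0.74. None of these lists had a gene past the adjusted threshold.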
